A study of Mus musculus with 69 samples.

Results

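Cultured aortic smooth muscle cells without EGFR had more RNA of Angptl4, Pdk4, Cpt1a, Ech1 and Plin2, genes of fatty acid handling, burning and storage, and less RNA of Abca1, Mylip, Scd1 and Scd2, genes of cholesterol export and fatty acid desaturation, when glucose and fatty acids were given on top of vasoactive hormones. The comparison was ALL stressors against AII + NA in KO VSMC, and it isolates the effect of high glucose and free fatty acids (HG + FFA) in cells that received the hormones anyway. It used 6 of the 69 libraries of the series, namely the ALL and the AII + NA library of each of sets 6, 7 and 8, chosen by their genotype, treatment and set labels. A set holds cells of a single animal, at the same passage and treated together, so that the 6 libraries form 3 pairs.

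KO VSMC were primary vascular smooth muscle cells from the thoracic and abdominal aorta of male C57BL/6 mice whose floxed Egfr gene is removed by Cre under the SM22 promoter, a promoter of smooth muscle, and the ages of the mice were not given. Cells were kept without serum for 24 h and then exposed for 24 h. For AII + NA, the labels give angiotensin II at 30 nM and epinephrine at 300 nM, whereas the methods of the study name norepinephrine, so that the catecholamine is uncertain. ALL added glucose at 20 mM and free fatty acids at 100 µM by the labels. The methods of the study name oleate and palmitate, each at that concentration, so that the total is uncertain. Control and HG + FFA libraries of the same 3 sets served for comparison. So did WT VSMC (wildtype animals, sets 1 to 4) and EC (primary endothelial cells of the heart, WT by their titles, sets 9 to 18). Another KO VSMC set, set 5, has no ALL library among the samples used here. Apart from alternative fits, it entered with its HG + FFA and Control libraries only.

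Fatty acids that enter a cell are coupled to coenzyme A and are either stored as triglyceride in lipid droplets or carried by the carnitine shuttle into mitochondria for β-oxidation. They also bind the PPAR receptors, which pair with RXR on DNA and raise transcription of genes such as Angptl4, Pdk4, Cpt1a and Plin2. LXR, a receptor for oxysterols, drives Abca1, Mylip and stearoyl-CoA desaturase genes, and polyunsaturated fatty acids are known to lower desaturase transcription. High glucose is sensed by the factors ChREBP and MondoA, whose best known targets are Txnip and Arrdc4. In the vessel wall, smooth muscle cells that take up lipid can become foam cells.

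The libraries held between 23500249 and 31116626 counts. FPM denotes counts scaled to library size after TMM normalization, without correction for gene length, so that FPM values are compared here between libraries and not between genes. Egfr, the targeted gene, had 0.938 to 1.95 FPM in the 6 libraries, against 215 to 473 FPM in the 16 WT VSMC libraries. Egfr was at 33.0 to 39.5 FPM in the 3 libraries of set 5, between these levels. Set 5 was kept out of the main fit because it has no ALL library. Of 12 smooth muscle markers, 11 had at least 1 FPM on average, with Acta2 at 705 to 1794 FPM and Cald1 at 873 to 1762 FPM. Tagln, the gene whose promoter is named SM22, had only 2.33 to 8.18 FPM, Myh11 had 2.67 to 11.7 FPM and Myocd had 0.0392 to 1.29 FPM. All 8 fibroblast markers were present as well, and cultured smooth muscle cells and fibroblasts share many of these RNAs, so that the label was not contradicted but rests on part of the marker list.

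First, the number of DEG was determined. A protein-coding or lncRNA gene was called a DEG when edgeR and DESeq2 both gave an FDR under 0.05, its |log2FC| reached 0.64 and its mean reached 3 FPM in ALL or AII + NA. Of 16821 genes tested, 83 were DEG (0.493%), of which 49 were higher (0.291%) and 34 lower (0.202%) with ALL than with AII + NA. All 83 moved in the same direction in all 3 sets. In 35 of them, 24 higher and 11 lower, the 3 ALL libraries did not overlap with the 3 AII + NA libraries, and the same held for 1228 of all genes tested (7.3%). The count depended on the sets: without set 7 only 9 genes were called, all of them higher. Without set 6 there were 51, and without set 8 there were 110. With set 7 left out, Abca1, Mylip, Scd1 and Scd2 stayed lower, at edgeR FDR of 0.1525, 0.1235, 0.6147 and 0.1511. Cpt1a and Plin2 stayed higher in that fit, at 0.096 and 0.2632. Without the set as a block no gene was called by both tools, with 366 genes at an unadjusted edgeR p under 0.05. Fabp4, Pdk4, Ech1, Aldh3a1, Prl2c3 and Angptl4 were among those called whichever set was left out. The median log2FC of all genes was -0.001.

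Promoters of 3 DEG whose direction differs show the letters that PPAR, RXR and the glucose-sensing factors are known to use. Each is the RefSeq stretch from 250 bases before to 50 bases after the start, read 5′ to 3′ on the strand of the gene, in build GRCm38.p6, with the motif in capitals. Cpt1a and Plin2, both higher with ALL, hold AGGTCA, the core site of nuclear receptors, on the reverse strand and thus as TGACCT. Arrdc4, lower with ALL, holds CACGTG, an E-box, which the Plin2 promoter also has in small letters. The motif begins 94 bases before the start in Cpt1a (chr19:3323051-3323350, plus strand), 218 bases before it in Plin2 (chr4:86670010-86670309, minus strand) and 193 bases before it in Arrdc4 (chr7:68749189-68749488, minus strand).
Cpt1a: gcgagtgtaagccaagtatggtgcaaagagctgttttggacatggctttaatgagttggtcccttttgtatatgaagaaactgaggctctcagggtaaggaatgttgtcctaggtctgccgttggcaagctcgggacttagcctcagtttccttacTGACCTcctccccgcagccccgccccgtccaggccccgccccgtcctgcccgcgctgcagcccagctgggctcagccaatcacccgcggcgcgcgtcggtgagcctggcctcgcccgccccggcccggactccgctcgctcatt
Plin2: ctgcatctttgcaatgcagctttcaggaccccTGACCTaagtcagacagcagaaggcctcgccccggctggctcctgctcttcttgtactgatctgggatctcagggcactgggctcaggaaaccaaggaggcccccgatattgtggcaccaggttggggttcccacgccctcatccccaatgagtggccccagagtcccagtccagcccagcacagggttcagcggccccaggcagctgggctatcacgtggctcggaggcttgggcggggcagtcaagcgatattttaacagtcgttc
Arrdc4: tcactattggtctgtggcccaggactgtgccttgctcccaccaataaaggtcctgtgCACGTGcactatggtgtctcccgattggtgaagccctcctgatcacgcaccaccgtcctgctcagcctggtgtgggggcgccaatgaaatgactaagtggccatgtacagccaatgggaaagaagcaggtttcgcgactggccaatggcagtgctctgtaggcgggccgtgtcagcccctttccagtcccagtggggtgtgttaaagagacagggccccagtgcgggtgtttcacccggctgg
RefSeq promoters were found for 33 of the higher and 25 of the lower DEG. AGGTCA, searched on both strands, was in 14% of the 43 promoters of higher DEG, in 9.68% of the 31 promoters of lower DEG and in 16.3% of all 32851 promoters. CACGTG was in 6.98%, 16.1% and 7.15% of them, and the lower DEG with it were Abca1, Arrdc4, Cbs, Klf15 and Ppp1r3c. AGGTCA thus was no more frequent in these windows than in promoters at large. A full PPAR site, 2 core sites 1 base apart in exact letters, was found in no promoter of a DEG and in 0.0396% of all promoters. At so small a share, its absence from these few promoters cannot set the DEG apart. Angptl4 and Fabp4 were among the DEG without a RefSeq promoter, and sites outside the windows were not searched.

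Next, the fatty acid genes were analyzed, beginning with secreted and binding proteins. Angptl4, a secreted inhibitor of lipoprotein lipase (chromosome 17, 33992724 to 34000804 in GRCm39), had 17.9, 23.4 and 135 FPM in sets 6, 7 and 8 with AII + NA and 220, 257 and 641 FPM with ALL. Every ALL library exceeded every AII + NA library, and the set with the highest level under hormones also had the highest level under ALL. The log2FC of 3.10 ± 0.306 (SE, n = 3 pairs, edgeR FDR = 0.000141) was an 8.59-fold difference and had the largest size of all DEG. Fabp4, a cytosolic fatty acid carrier known from adipocytes and macrophages, had 3.25, 4.69 and 53.1 FPM with AII + NA and 7.73, 12.2 and 139 FPM with ALL. Its level differed more between sets than between treatments, so that the groups overlapped, but the ratio within a set was alike and the log2FC was 1.35 ± 0.140 (FDR = 0.0002). Vldlr, the receptor that takes up triglyceride-rich lipoproteins, went the other way, from 100, 59.3 and 60.1 FPM to 47.8, 31.7 and 38.1 FPM (log2FC = -0.88 ± 0.120, FDR = 0.00263). Of the 13 tested genes of fatty acid uptake, binding and the angiopoietin-like family, these 3 were the DEG, and the median log2FC was -0.06.

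**Figure D1:**
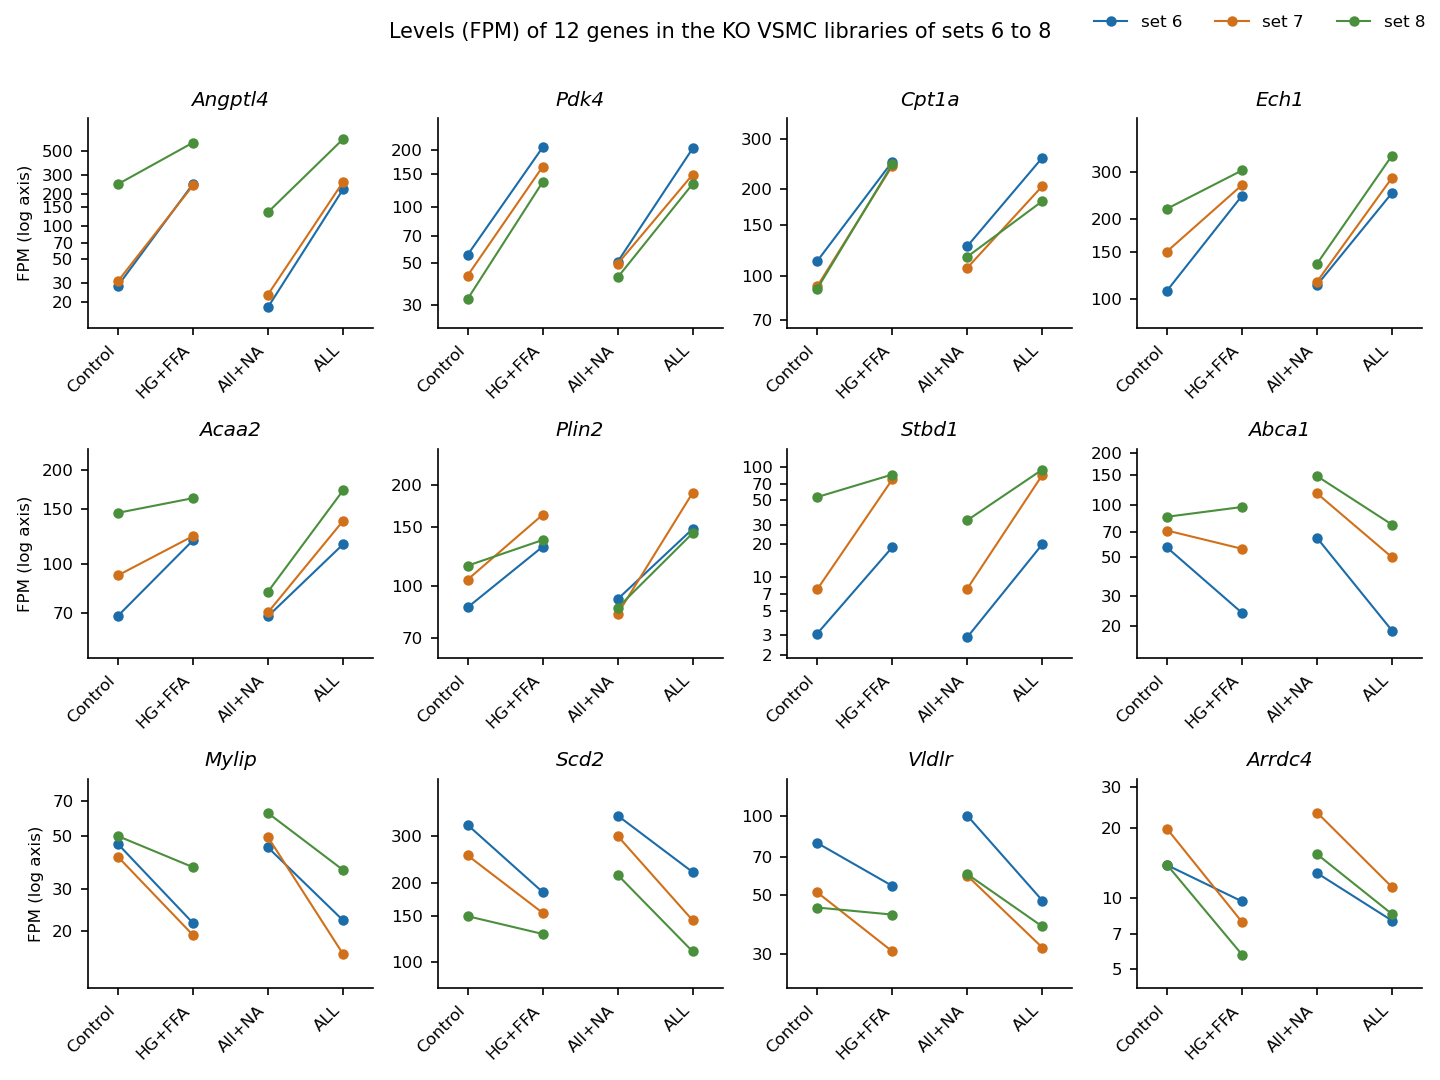
FPM (log axis) of 12 DEG in the Control, HG + FFA, AII + NA and ALL libraries of KO VSMC, with a line for each of sets 6, 7 and 8. Angptl4, Pdk4, Cpt1a, Ech1, Acaa2, Plin2 and Stbd1 are higher and Abca1, Mylip, Scd2, Vldlr and Arrdc4 lower with ALL than with AII + NA in each set, for example Pdk4 with 132 to 205 against 42.0 to 50.9 FPM.

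In the carnitine shuttle, genes for its entry steps rose. Cpt1a, which forms acylcarnitine at the outer mitochondrial membrane and sets the rate of β-oxidation (chromosome 19, 3371853 to 3437996), had 127, 107 and 116 FPM with AII + NA and 258, 205 and 182 FPM with ALL. All 3 values with ALL lay above all 3 with AII + NA (log2FC = 0.87 ± 0.104, FDR = 0.000841). Slc25a20, the carrier that exchanges acylcarnitine across the inner membrane, went from 36.7, 40.9 and 42.4 FPM to 54.2, 74.7 and 65.7 FPM (log2FC = 0.69 ± 0.098, FDR = 0.00347). Slc22a5, which imports carnitine into the cell, went from 23.0, 24.5 and 20.6 FPM to 35.0, 46.0 and 29.8 FPM (log2FC = 0.68 ± 0.113, FDR = 0.0114). Neither gene showed an overlap between the groups. These 3 were the DEG among 8 tested shuttle genes, whose median log2FC was 0.30, and Cpt2, the inner membrane counterpart of Cpt1a, had a log2FC of 0.22 (FDR = 0.452).

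For mitochondrial and peroxisomal β-oxidation, 3 of 31 tested genes were DEG, all higher, and the median log2FC was 0.14. Ech1, an isomerase needed for unsaturated fatty acids such as oleate (chromosome 7, 28524036 to 28531674), had 113, 116 and 136 FPM with AII + NA and 250, 285 and 345 FPM with ALL (log2FC = 1.26 ± 0.126, FDR = 0.000141). Acaa2, the thiolase of the last step, rose from 68.2, 70.1 and 81.7 FPM to 116, 138 and 172 FPM (log2FC = 0.93 ± 0.127, FDR = 0.00263). The libraries of both genes stood apart by treatment, and set 8 was highest in either treatment. Etfb, a subunit of the flavoprotein that passes electrons to the respiratory chain, had 11.4, 10.3 and 14.7 FPM and then 17.9, 23.7 and 21.1 FPM (log2FC = 0.79 ± 0.164, FDR = 0.0383), but 43.5% of its exonic bases are shared with another gene. Acadl and Acadvl, dehydrogenases of the first step, had an edgeR FDR of 0.00876 and 0.0229, with log2FC of 0.56 and 0.53 below the threshold of 0.64. With them, 5 of the 31 genes were higher at an edgeR FDR under 0.05, as were 0.446% of all genes. A positive log2FC was found for 25 of the 31, for 12 of them at an unadjusted p under 0.05, whereas 6.29% of all genes were higher at that p.

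Among genes that direct fuel choice, Pdk4 stood out. Pdk4, the kinase that switches off pyruvate dehydrogenase and thereby spares glucose (chromosome 6, 5483097 to 5496339), had 50.9, 49.6 and 42.0 FPM with AII + NA and 205, 148 and 132 FPM with ALL. It was uniform among the AII + NA libraries and 3.35-fold higher with ALL, with a log2FC of 1.75 ± 0.108 and the smallest FDR of all genes (8.43e-07). The remaining 13 genes of pyruvate dehydrogenase and its regulation contained no DEG, and Pdk1, Pdk2 and Pdk3 had log2FC of 0.03, -0.13 and 0.22 with FDR of 0.946, 0.717 and 0.514. Slc25a42, the mitochondrial importer of coenzyme A, was a DEG as well (log2FC = 0.65 ± 0.107, FDR = 0.0107). Oxct1, which breaks ketone bodies down, had a log2FC of -0.46 at an edgeR FDR of 0.0401, below the fold threshold.

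In the lipid droplet list, 2 of 15 tested genes were DEG and the median log2FC was 0.16. Plin2, the droplet coat protein (chromosome 4, 86565912 to 86588459), had 91.2, 82.5 and 86.0 FPM with AII + NA and 148, 190 and 144 FPM with ALL (log2FC = 0.88 ± 0.122, FDR = 0.00281). Lipe, hormone-sensitive lipase, which breaks down stored fat, went from 9.50, 8.60 and 9.20 FPM to 22.9, 20.4 and 19.8 FPM (log2FC = 1.21 ± 0.156, FDR = 0.00188). A coat gene and a lipase gene thus rose side by side, both without overlap of the groups, while Pnpla2, the first lipase of the droplet, had a log2FC of 0.16 (FDR = 0.712). Acot1, a cytosolic thioesterase that frees fatty acids from coenzyme A, was the DEG among 17 thioesterases and synthetases (log2FC = 0.65 ± 0.123, FDR = 0.0229). The receptors themselves were not among the DEG, as none of 11 genes for PPAR receptors and coactivators was called, at a median log2FC of -0.09. Pparg had 1.28, 3.52 and 5.02 FPM with AII + NA and 2.13, 6.38 and 8.26 FPM with ALL (log2FC = 0.77 ± 0.212, FDR = 0.12). Pparg was a higher DEG for HG + FFA against Control in the same sets (log2FC = 0.91 ± 0.213, FDR = 0.0256), where 7 of the 11 genes were higher at an unadjusted p under 0.05 (14.4% of all genes) and the median was 0.34. Ppargc1a, a coactivator, had less than 2 FPM in each library (log2FC = -1.83 ± 0.527, FDR = 0.14).

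**Figure D2:**
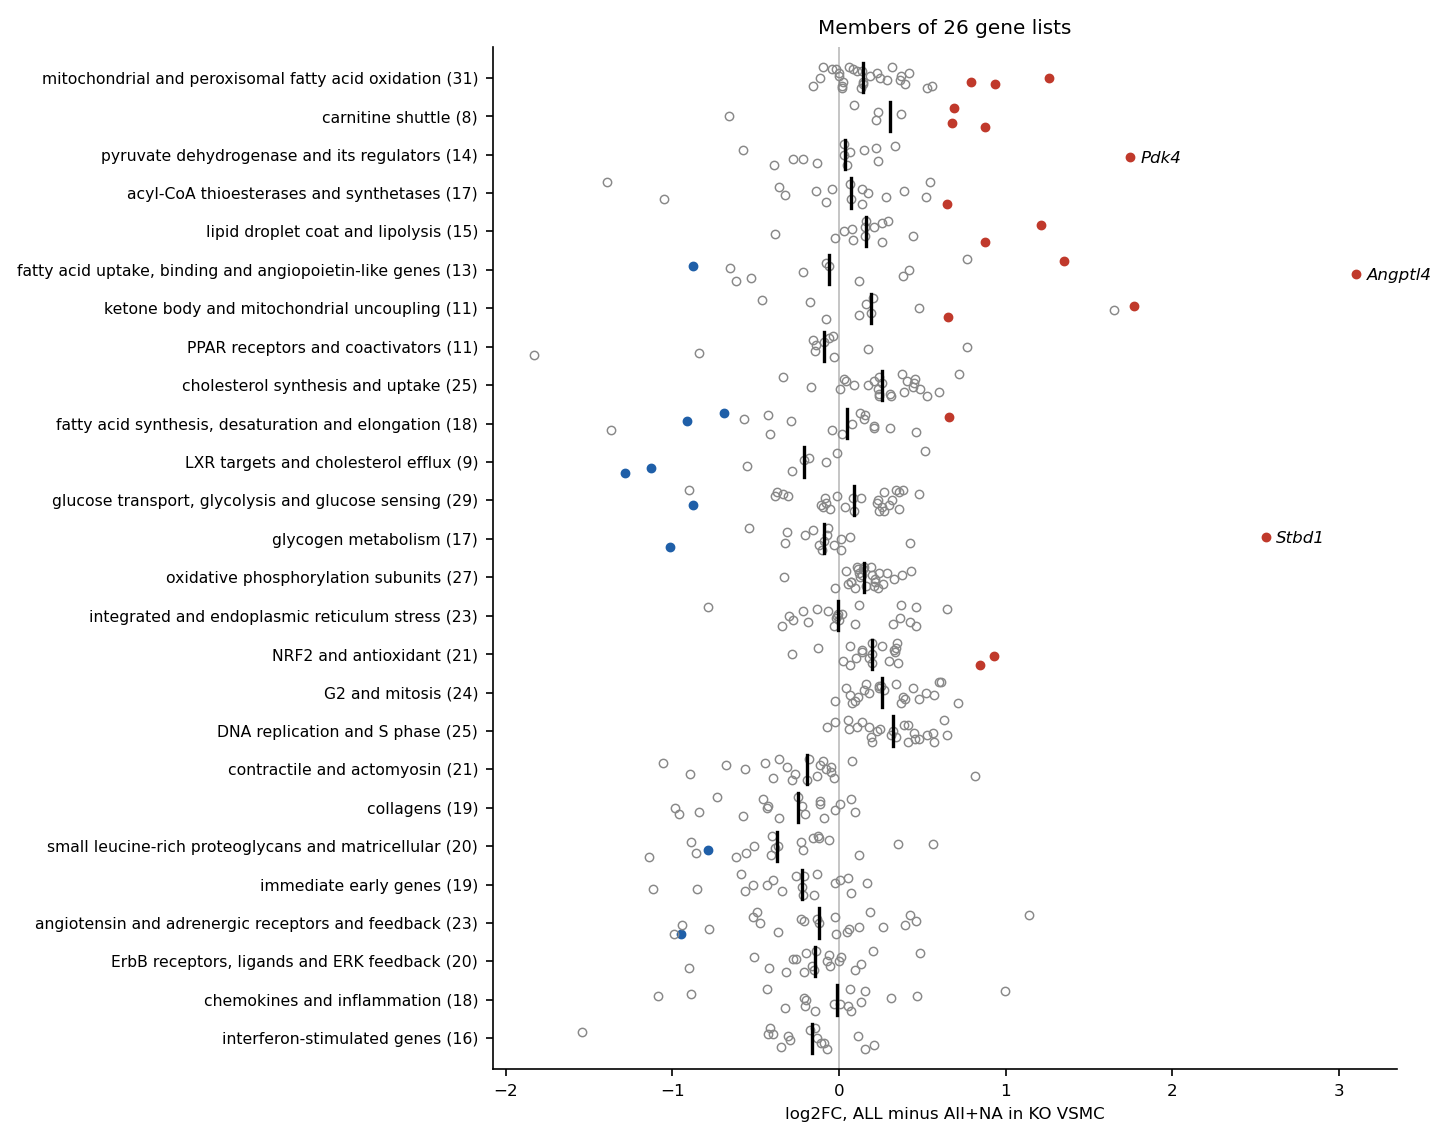
log2FC of ALL against AII + NA for the tested members of 26 gene lists, a row for each list and a point for each gene. Filled red points are DEG higher with ALL, filled blue points DEG lower with ALL, and the black bar is the median of the list, which lies between -0.38 for proteoglycans and matricellular genes and 0.32 for DNA replication.

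Among the genes that fell were members of the lists of cholesterol export and fatty acid synthesis. Abca1, which exports cholesterol to apolipoprotein A-I (chromosome 4, 53030787 to 53159900), had 64.8, 117 and 147 FPM with AII + NA and 18.9, 50.1 and 77.2 FPM with ALL. The groups overlapped because set 6 was low in both treatments, and within each set the level fell (log2FC = -1.28 ± 0.206, FDR = 0.00898). Mylip, a ubiquitin ligase that removes the LDL receptor, went from 44.8, 49.5 and 62.3 FPM to 22.2, 16.1 and 36.1 FPM without overlap (log2FC = -1.13 ± 0.154, FDR = 0.00263). Both are LXR targets, and they were the DEG among 9 genes of that list, whose median log2FC was -0.21, while 0.309% of all genes were lower at an edgeR FDR under 0.05. The receptors Nr1h3 and Nr1h2 had log2FC of -0.08 and -0.01 (FDR = 0.865 and 0.979), and Arl4c, another target, had a positive log2FC of 0.52 at an edgeR FDR of 0.0423.

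Scd2 and Scd1, the desaturases that make oleate from stearate, were lower with ALL. Scd2 had 360, 302 and 214 FPM with AII + NA and 220, 144 and 110 FPM with ALL (log2FC = -0.91 ± 0.119, FDR = 0.00191), and Scd1 had 92.4, 80.9 and 50.7 FPM and then 73.0, 44.0 and 28.1 FPM (log2FC = -0.69 ± 0.124, FDR = 0.0179). In both genes set 6 was the highest and set 8 the lowest in either treatment. Fads2, a desaturase of polyunsaturated fatty acids, rose instead, from 62.0, 62.3 and 54.5 FPM to 86.8, 113 and 84.3 FPM (log2FC = 0.66 ± 0.097, FDR = 0.00465), so that the 18 tested genes of fatty acid synthesis held DEG of both directions. None of 25 genes of cholesterol synthesis and uptake was a DEG. Their median log2FC was 0.26, and 8 were higher and 0 lower at an unadjusted p under 0.05, where 6.29% and 6.6% of all genes were. Insig1, which restrains sterol synthesis, had a log2FC of 0.44 at an edgeR FDR of 0.0424, below the fold threshold. The median of this list was 0.33, 0.01 and 0.47 in sets 6, 7 and 8.

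Glucose handling showed few DEG. Arrdc4, an arrestin-domain gene of glucose uptake that high glucose is known to induce, was the DEG among 29 genes of glucose transport, glycolysis and sensing, and it was lower with ALL: 12.8, 23.3 and 15.4 FPM with AII + NA became 8.02, 11.2 and 8.56 FPM (log2FC = -0.88 ± 0.184, FDR = 0.0412). Txnip, singled out after its values were seen because it is the related target of the same factors, had a mean of 619 FPM with AII + NA and 506 FPM with ALL (log2FC = -0.37 ± 0.209, FDR = 0.479). Thus neither of the best known glucose-responsive genes was higher in the medium with more glucose. In glycogen metabolism, 17 genes held a DEG in each direction. Stbd1, which tethers glycogen to membranes, had 2.88, 7.90 and 32.8 FPM with AII + NA and 19.9, 84.3 and 94.3 FPM with ALL (log2FC = 2.56 ± 0.394, FDR = 0.00633), with the largest ratios in sets 6 and 7. Ppp1r3c, which targets a phosphatase to glycogen and favours its synthesis, went from 21.3, 32.2 and 41.9 FPM to 9.99, 11.6 and 29.2 FPM (log2FC = -1.01 ± 0.191, FDR = 0.0226).

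Of 21 NRF2 and antioxidant genes, 2 were DEG, both higher, at a median log2FC of 0.20. Hmox1, heme oxygenase, had 84.5, 140 and 72.7 FPM with AII + NA and 180, 269 and 123 FPM with ALL (log2FC = 0.93 ± 0.108, FDR = 0.000726). Aldh3a1, an aldehyde dehydrogenase that clears products of lipid peroxidation, had 69.8, 44.9 and 49.6 FPM and then 132, 65.8 and 104 FPM (log2FC = 0.85 ± 0.133, FDR = 0.00773). Set 7 was the highest for Hmox1 and the lowest for Aldh3a1, so that the 2 genes did not rank the sets alike. None of 23 genes of the integrated and endoplasmic reticulum stress response was a DEG, and their median log2FC was -0.004.

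Among genes of the vessel wall, Ccn1, a matricellular protein induced by stretch and growth factors, was a DEG with 1175, 1030 and 407 FPM under AII + NA and 821, 476 and 239 FPM under ALL (log2FC = -0.79 ± 0.143, FDR = 0.0183), although 23.0% of its exonic bases are shared with another gene. It was called among 20 proteoglycan and matricellular genes with a median log2FC of -0.38, the lowest of the 26 lists. The median of this list was -0.171, -0.475 and -0.196 in sets 6, 7 and 8, so that set 7 was the furthest from 0. Ace, which forms angiotensin II, had 174, 26.9 and 84.7 FPM and then 141, 9.48 and 35.9 FPM (log2FC = -0.95 ± 0.187, FDR = 0.0282), and it was the DEG among 23 genes of angiotensin and adrenergic receptors and their feedback. Ace differed more between animals than between treatments, and set 6 was far above the other sets. None of 19 collagens was a DEG, at a median log2FC of -0.24 with 9 lower and 0 higher at an unadjusted p under 0.05, whereas 6.6% of all genes were lower at that p. Col5a3 was nearest to the threshold (log2FC = -0.84 ± 0.186, FDR = 0.0501). None of 21 contractile and actomyosin genes was called either (median log2FC -0.19), with Myh11, smooth muscle myosin, at 10.4, 11.7 and 3.04 FPM with AII + NA and 4.39, 3.84 and 2.67 FPM with ALL (log2FC = -1.06 ± 0.248, FDR = 0.066).

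Growth and signaling lists held no DEG. The 25 genes of DNA replication had a median log2FC of 0.32, the highest of the 26 lists, with 12 higher and 0 lower at an unadjusted p under 0.05, as were 6.29% and 6.6% of all genes. In sets 6, 7 and 8 the median of this list was 0.316, 0.15 and 0.428. Mcm5, of the replicative helicase, had 27.1, 13.9 and 3.73 FPM with AII + NA and 37.1, 23.9 and 6.23 FPM with ALL (log2FC = 0.65 ± 0.169, FDR = 0.099), and Rrm1, which makes deoxynucleotides, had a log2FC of 0.39 ± 0.101 (FDR = 0.099). For 24 mitosis genes the median log2FC was 0.26, but it was 0.24 in set 6, -0.45 in set 7 and 1.31 in set 8, so that the sets went in different directions. Kif11, the spindle motor, had 13.7, 4.00 and 0.723 FPM with AII + NA and 16.2, 3.96 and 3.56 FPM with ALL, and was lowest in set 8 in both.
The medians were 0.15 for 27 subunits of oxidative phosphorylation, -0.22 for 19 immediate early genes, -0.14 for 20 ErbB genes and their feedback, -0.01 for 18 chemokines and inflammatory genes and -0.16 for 16 interferon-stimulated genes. Fosl2, an AP-1 subunit, was the member nearest to a call with a log2FC of -0.52 (edgeR FDR = 0.0385), and below the fold threshold.

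Further DEG with large changes belonged to none of the lists. Prl2c2 and Prl2c3, proliferins of the prolactin family, had 0.879, 0.695 and 3.19 FPM and 0.609, 1.56 and 2.32 FPM with AII + NA. With ALL they had 3.56, 8.93 and 27.4 FPM and 2.48, 6.58 and 16 FPM, for log2FC of 2.94 ± 0.403 (FDR = 0.00263) and 2.35 ± 0.226 (FDR = 0.000141). The 2 genes are near-identical copies and reads with several alignments were counted, so that their values are not independent and the share of each is uncertain. Gria4 and Gabra3, receptor subunits for glutamate and GABA known from neurons, rose with log2FC of 1.33 ± 0.222 (FDR = 0.0116) and 1.41 ± 0.207 (FDR = 0.00452) from levels that were under 1 FPM in set 6 and higher in sets 7 and 8. Slc43a3, a purine base carrier that is also linked to fatty acid flux, went from 37.1, 47.0 and 47.4 FPM to 57.8, 120 and 103 FPM (log2FC = 1.04 ± 0.159, FDR = 0.00613). Crct1 and Slfn2 were also among the 15 largest rises, with log2FC in DESeq2 of 1.259 and 1.102 (DESeq2 FDR = 0.0001345 and 0.001943).

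Apod, a lipid-binding apolipoprotein, had the largest fall, from 3.79, 7.08 and 10.8 FPM to 2.00, 1.68 and 3.42 FPM (log2FC = -1.52 ± 0.293, FDR = 0.0236). Cbs, which starts the conversion of homocysteine to cysteine, went from 10.2, 9.12 and 4.41 FPM to 6.68, 3.80 and 1.28 FPM (log2FC = -1.15 ± 0.199, FDR = 0.0144). Abat, which degrades GABA, went from 46.7, 58.3 and 19.4 FPM to 22.0, 23.7 and 11.6 FPM (log2FC = -1.05 ± 0.131, FDR = 0.00134). For Cbs and Abat set 8 was the lowest under both treatments, and only the paired ratios separated the treatments. Abi3bp and Pi15, secreted matrix-associated proteins, Atp2b4, a calcium pump of the plasma membrane, Ccdc148 and Tnnt2, cardiac troponin T, made up the rest of the 10 largest falls, with log2FC between -1.03 and -1.16. Finally, 4 of the DEG were lncRNA, of which Gm56555 was among the 15 largest rises (log2FC = 1.05 ± 0.230, FDR = 0.0482).

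Then the same addition of glucose and fatty acids was examined without hormones. HG + FFA against Control in sets 6 to 8 used 6 other libraries of the same animals, so that the log2FC values share no library with the comparison above. The estimate of the spread is shared, as both contrasts come from the same fit. The FDR values are therefore not independent of the choice of the DEG. Of the 49 DEG that were higher with ALL, all 49 were higher with HG + FFA, and 37 of them passed an edgeR FDR of 0.05 there, as did 4.16% of all genes in that direction. By the full set of thresholds, HG + FFA had 293 DEG (1.74%), and 28 of the 49 were among its 163 higher ones (0.969%) and 7 of the 34 among its 130 lower ones (0.773%). With only its own 6 libraries in the fit, HG + FFA had 13 DEG. The median log2FC of the 49 was 0.85 with hormones and 0.81 without. Of the 34 DEG that were lower with ALL, 31 were lower with HG + FFA, 14 at an FDR under 0.05 against 4.42% of all genes, with medians of -0.89 and -0.46. The DEG were selected for a large difference in the presence of hormones, so that the medians of both contrasts are not on an equal footing. Pdk4 had a log2FC of 1.96 ± 0.108 without hormones, which was close to the 1.75 with them. Cpt1a had 113, 92.0 and 90.2 FPM in Control and 250, 242 and 244 FPM with HG + FFA (log2FC = 1.33 ± 0.104), and Etfb had 12.4, 16.2 and 25.7 FPM and then 15.6, 17.7 and 19.8 FPM (log2FC = 0.01 ± 0.160).

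**Figure D3:**
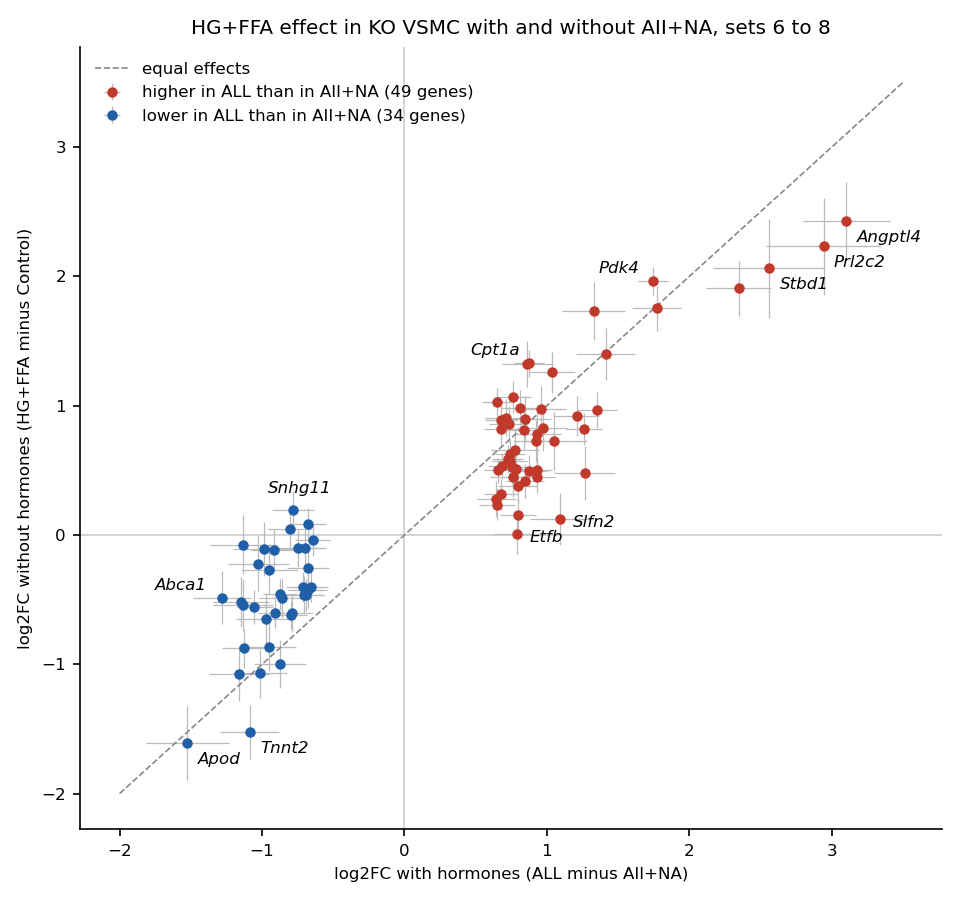
log2FC of the 83 DEG with hormones (ALL against AII + NA, x axis) and without (HG + FFA against Control, y axis) in sets 6 to 8 of KO VSMC, with SE bars and a dashed line of equal values. The 49 higher DEG lie above 0 on both axes, and of the 34 lower DEG 31 lie below 0 on both.

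Set 5, an animal that took no part in choosing the DEG, gave a single HG + FFA and Control pair. In that pair 47 of the 49 higher DEG were higher with HG + FFA (median log2 ratio 0.54 with a pseudocount of 0.1 FPM) and 32 of the 34 lower DEG were lower (median -0.53), where 50.03% and 49.7% of all genes were higher and lower. Angptl4 had a log2 ratio of 0.86 in set 5, Pdk4 one of 0.47 and Abca1 one of -1.13. Cpt1a was at 0.08, the nearest to 0 of these 4 genes. With 1 pair there is no test.

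The ratios without hormones varied with gene length, and differently from set to set. In HG + FFA against Control, the median log2 ratio of short and long genes (at most 4486 and at least 9745.5 exonic bases, of 9271 protein-coding genes) was -0.06 and 0.03 in set 6, -0.21 and 0.19 in set 7, and -0.39 and 0.30 in set 8. In set 5 it was of the opposite order, at 0.19 and -0.17. For ALL against AII + NA the values were smaller, from 0.05 to 0.12 for short and from -0.04 to -0.06 for long genes. The higher DEG had a median of 4497 exonic bases and the lower ones 7471.5, and the part of this trend in the calls was tested only by removing it, after the data were seen: 95 genes were then called, 74 of them among the 83, and the number of higher DEG stayed at 49. Without set 7, 4 of the higher and 0 of the lower DEG passed an FDR of 0.05 for HG + FFA against Control, with 40 and 12 in the same direction at an unadjusted p under 0.05.

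Whether hormones changed the response was tested as the departure from additivity, that is, the difference between both contrasts. With edgeR 0 of 16821 genes passed an FDR of 0.05, with a smallest FDR of 0.0722, while 3825 (22.7%) had an unadjusted p under 0.05 and DESeq2 called 1401. Among the 83 DEG, 14 of the 49 higher and 15 of the 34 lower had an unadjusted p under 0.05. The departure contains the contrast that chose these DEG, and that choice favours such values, so that no conclusion is drawn from them. Cpt1a had the smaller response with hormones (departure -0.46 ± 0.146, FDR = 0.0992) and Etfb the larger (0.78 ± 0.229, FDR = 0.089). Abca1 was among the lower genes with a larger fall with hormones (-0.80 ± 0.288, FDR = 0.127). None of these differences passed the correction in edgeR, whereas in DESeq2 Cpt1a, Etfb and Abca1 did (FDR = 0.0325, 0.0248 and 0.0468). A missed threshold does not show that the responses were equal, and the trend with gene length in HG + FFA against Control enters this difference directly.

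In the opposite direction of reading, the 163 genes that were DEG and higher with HG + FFA against Control had a median log2FC of 0.80 there and 0.16 for ALL against AII + NA, where 104 were higher and 63 were so at an unadjusted p under 0.05 (6.29% of all genes). The 130 lower ones had medians of -0.77 and -0.22, with 101 lower and 53 at an unadjusted p under 0.05 (6.6% of all genes). These genes were selected in the contrast that carries the larger length trend, and their median exonic bases were 8066 and 2984.5. Both contrasts shared 35 DEG, which are 42.2% of the 83 and 11.9% of the 293 DEG of HG + FFA.

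The same contrast in WT VSMC, with EGFR present and 4 sets, called 91 DEG of 16905 genes tested (0.538%). Of these, 16 were among the 83, which are 19.3% of the latter and 17.6% of the former, 13 of them higher (0.278%) and 3 lower (0.26%). Of the 49 higher DEG of KO VSMC, 46 were higher in WT VSMC, 35 at an unadjusted p under 0.05 (6.96% of all genes), with a median log2FC of 0.49. Of the 34 lower DEG, 29 were lower, 16 at an unadjusted p under 0.05 (7.35%), with a median of -0.27. Pdk4 had a log2FC of 1.52 ± 0.234 in WT VSMC, Cpt1a had 0.64 ± 0.136, and Angptl4 had 1.22 ± 0.291 against 3.10 in KO VSMC. The difference itself was tested in a joint model of 28 libraries. It includes the KO VSMC libraries in which the DEG were chosen for their size, so that it does not undo that choice. Angptl4 differed by 1.89 ± 0.470 (FDR = 0.218), and Abca1 by -0.56 ± 0.299 (FDR = 0.663), so that neither passed. Among the 83 DEG, 23 of the 49 higher and 21 of the 34 lower ones had an unadjusted p under 0.05 for this difference, against 7.94% of all genes, and 1 of them, Aldh3a1, passed the FDR. The choice by size in KO VSMC favours such differences, so that the counts at an unadjusted p are no test of the genotype.

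With edgeR, 2 of 18164 genes (0.011%) passed an FDR of 0.05 for the difference between KO VSMC and WT VSMC, while 1442 (7.94%) had an unadjusted p under 0.05 and DESeq2 called 237. Aldh3a1 was higher with ALL in KO VSMC, as given above, and lower in WT VSMC, where its mean was 20.2 FPM with AII + NA and 8.95 FPM with ALL (log2FC = -1.13 ± 0.188, FDR = 0.00707). The effects differed by 1.99 ± 0.252 (FDR = 0.000878). Anxa8, an annexin that binds membrane lipids, had 121, 96.2 and 45 FPM with AII + NA and 114, 107 and 45 FPM with ALL in KO VSMC. Its log2FC in KO VSMC was 0.02 ± 0.108 (FDR = 0.952), whereas it fell in WT VSMC (log2FC = -0.73 ± 0.067, FDR = 9.09e-05), and the difference was 0.76 ± 0.116 (FDR = 0.0102).

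**Figure D4:**
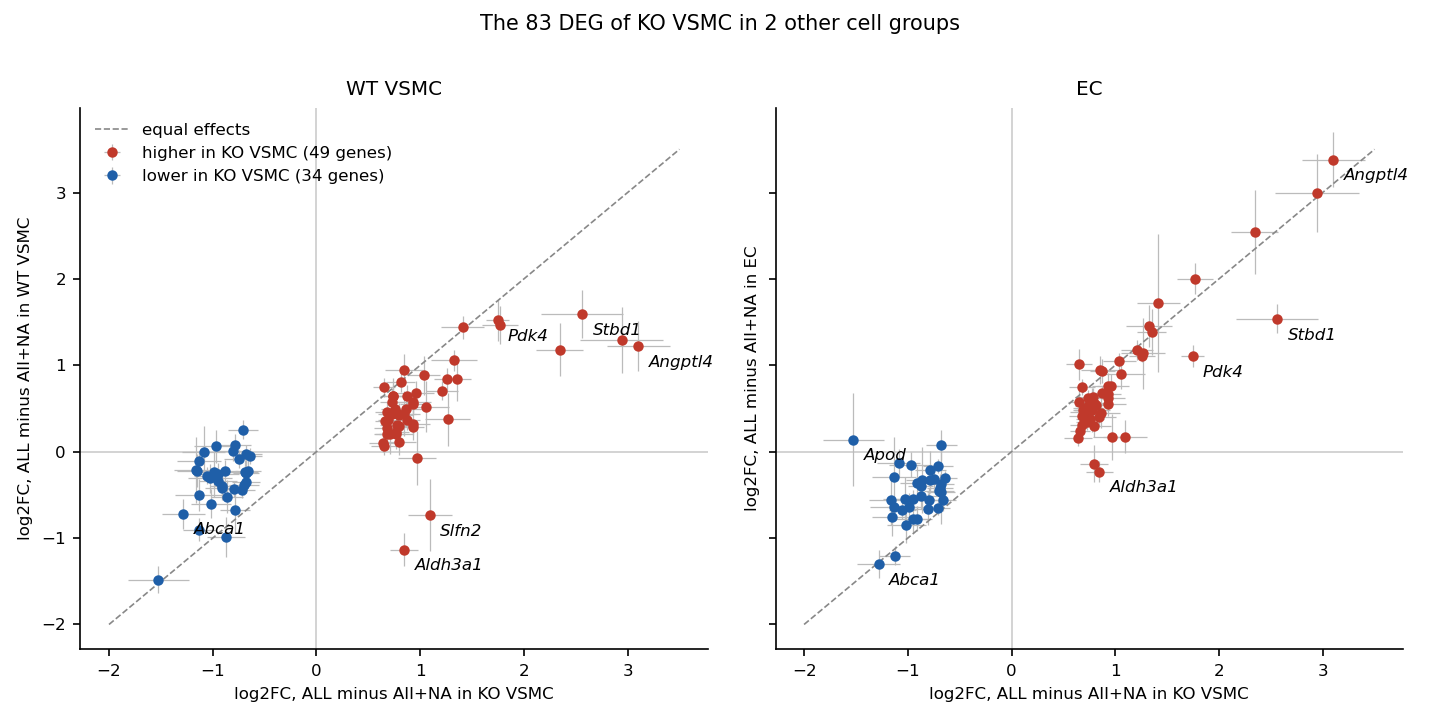
log2FC of ALL against AII + NA for the 83 DEG in KO VSMC (x axis of both panels) against WT VSMC and against EC (y axes), with a dashed line of equal values. Most points lie in the same quadrant, 46 of 49 higher and 29 of 34 lower DEG for WT VSMC and 47 and 32 for EC, and Aldh3a1 lies at 0.85 in KO VSMC and -1.13 in WT VSMC.

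In EC, with 9 sets that hold both libraries, of which sets 17 and 18 come from the same animal and set 16 from the animal of KO VSMC set 6, 108 of 17148 genes were DEG (0.63%). The 30 that KO VSMC shared, 20 higher (0.251%) and 10 lower (0.379%), are 36.1% of the 83 and 27.8% of the 108. Of the 49 higher DEG, 47 were higher in EC, 42 at an unadjusted p under 0.05 (6.48% of all genes), with a median log2FC of 0.62. Of the 34 lower DEG, 32 were lower, 24 at an unadjusted p under 0.05 (8.88%), with a median of -0.49. Angptl4 and Ech1 had log2FC of 3.38 ± 0.317 and 1.11 ± 0.070 in EC, and Abca1 and Mylip had -1.30 ± 0.162 and -1.21 ± 0.108. EC carry another batch label than VSMC, which cannot be told apart from the cell type, but each set lies within a batch. A joint model of 50 libraries took each set as a block of its own, also where sets share an animal. In it 0 of 19757 genes differed between KO VSMC and EC at an edgeR FDR under 0.05. At an unadjusted p under 0.05 there were 379 (1.92%), and DESeq2 called 102. Among the 83 DEG, 9 higher and 7 lower ones differed at an unadjusted p under 0.05, which their choice by size in KO VSMC favours.

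Markers of other cell types were read in the same 6 libraries. Adipocyte markers summed to 8.64 to 9.54 FPM with AII + NA and 19.9 to 23.1 FPM with ALL, but only Lipe, a DEG named above, had 1 FPM or more, Lep and Cidec were at 0 in all 6 libraries, and Adipoq and Plin1 were near 0. Of 4 mesothelial markers, Upk3b was a DEG (log2FC = 0.74 ± 0.123, FDR = 0.0114), Msln had a log2FC of 1.18 ± 0.268 (FDR = 0.0563), and the summed level was 18 to 50.8 FPM with AII + NA and 33.0 to 82.0 FPM with ALL, with Wt1 at or near 0. Of 5 striated muscle markers, Tnnt2 alone was tested, with 180, 53.8 and 70.2 FPM and then 114, 17.4 and 33.6 FPM (log2FC = -1.09 ± 0.207, FDR = 0.0229), while Myl1 was at 0 and Myh6, Myh7 and Ckm were near 0. Fibroblast markers summed to 1714 to 2567 FPM with AII + NA and 1293 to 1757 FPM with ALL, and smooth muscle markers to 2351 to 4152 and 1929 to 3923 FPM, without a DEG in either list. Endothelial markers summed to no more than 5.52 FPM, leukocyte markers to no more than 35.5 FPM, with Itgam and Cd3e at 0, and Schwann cell markers to no more than 16 FPM, none of them with a DEG. Fewer cells of a type and less RNA per cell cannot be told apart in these bulk libraries, and the part of mesothelial and fibroblast RNA in the results was not tested.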

How the data were processed

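Poly(A) RNA of KO VSMC was sequenced as paired-end reads. The authors aligned the reads to mm39 with HISAT2 2.1.0, assigned them to Ensembl genes with featureCounts over exons, reads with several alignments included (-M), and deposited raw counts per gene without normalization. The strand setting was not given in the sources used here, so that reads of overlapping or antisense genes cannot be told apart, and 13 of the 83 DEG share at least 20% of their exonic bases with another gene.

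Starting from these counts, symbols and positions were taken from the GENCODE annotation of GRCm39 (0.0223% to 0.0254% of the counts of the 6 libraries lay on identifiers without an entry), and promoters from RefSeq on GRCm38.p6. In R 4.3.3, edgeR 4.0.16 (TMM, filterByExpr, quasi-likelihood test) and DESeq2 1.42.0 were fitted to the 12 libraries of sets 6 to 8, which share an estimate of the spread, with the set as a block, and the FDR is the Benjamini-Hochberg value across the genes of each fit. The pairing comes from the labels and methods, which give each set a single animal, and over 12020 genes deviations from the condition means correlated with a mean r of 0.828 within sets and -0.427 between sets. No libraries of a condition were duplicates, as their counts differed by a chi-square per gene of at least 77.4. The p-values measure the spread of the treatment effects among the 3 sets, since the block removes the level of each animal. That spread is estimated over the 12 libraries, Control and HG + FFA included. Each ± in the text is an SE of the fitted log2FC, on the log2 scale, with n = 3 pairs in KO VSMC, 4 in WT VSMC and 9 in EC. Differences from WT VSMC and EC were tested in joint models of 28 and 50 libraries. The models were tested before use on simulated counts with planted changes. Of changes of 0.75 log2, 78% were called for ALL against AII + NA and 53% for the departure, with 3 and 14 false calls. For the differences from WT VSMC and EC, 72% and 65% were called. Of changes of 1.5 log2, 98% to 100% were called. The simulated counts held no length trend and no treatment effect that differs between animals, so that they do not cover these features of the data. Figures were drawn with Python 3.11.15 and matplotlib 3.10.9.

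Named genes are the DEG with the largest |log2FC| and equal direction in all sets (at most 15 higher and 10 lower), each DEG in 1 of 26 gene lists, up to 2 members with the smallest p in lists without a DEG, genes passing an FDR of 0.05 for departure or for a difference between cell types, Egfr and cell type markers. Other members of a list are named to place a DEG among its relatives and were chosen after their values were seen. The comparison, the lists and the tests were chosen with earlier results of these data known. A named gene is not reported here. Of the listed symbols, Ddx58 was not matched. Alternatives were other normalization, no count filter, a single tool, other thresholds, no block, other sets of libraries, each set left out and removal of the trend with gene length.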

Additional observations from a re-analysis of the deposited data

Results flagged for a closer look

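For 2 genes the effect of ALL against AII + NA differed between KO VSMC and WT VSMC by a test of the difference itself in the joint model of 28 libraries. For Aldh3a1, an aldehyde dehydrogenase, the effect in KO VSMC exceeded that in WT VSMC by 1.99 ± 0.252 on the log2 scale (edgeR FDR = 0.000878, DESeq2 FDR = 2.06e-10). It was higher in 3 of 3 KO VSMC sets and lower in WT VSMC, at a higher level in KO VSMC (54.8 and 100.5 FPM with AII + NA and ALL) than in WT VSMC (20.2 and 8.95 FPM). In EC, with 116.8 and 108.8 FPM, its log2FC was -0.23 ± 0.126 (FDR = 0.392). For Anxa8, an annexin, the difference was 0.76 ± 0.116 (edgeR FDR = 0.0102, DESeq2 FDR = 3.96e-06), with a fall in WT VSMC from 29.2 to 17.7 FPM and 87.4 against 88.7 FPM in KO VSMC. The cause of either difference was not tested.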

How the results depend on the processing

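All 83 DEG of ALL against AII + NA kept their direction in every alternative fit. Of the 26 list medians, 4 moved without set 7, 3 without set 8 and 3 after removal of the length trend. Moved means a shift of at least the SD of the list's medians in the 3 sets. Whether a list median changed its sign was not recorded. The count of 83 was 26 with a |log2FC| of at least 1, 127 without the count filter, 0 without the set as a block, 53 with all 15 KO VSMC libraries, 137 with only the 6 libraries compared, and 9 to 110 with a set left out, lowest without set 7. For HG + FFA against Control, the 293 DEG became 1323 without the log2FC threshold, 56 with at least 1, 2 without the block, 50 with all 15 libraries (41 higher and 9 lower), 13 with only the 6 libraries compared, and 3 to 1139 with a set left out, lowest without set 7 and highest without set 6. The departure from additivity, with 0 genes in edgeR, had 1401 in DESeq2, 1542 without the count filter and 0 to 1564 with a set left out, the last without set 6. The 2 genes that differed from WT VSMC became 237 in DESeq2, 258 without the count filter, 0 without the block, 1 with set 5 included, 1 after removal of the length trend and 1 to 10 with a set left out. The 0 genes that differed from EC became 102 in DESeq2 and 13 without the count filter. The 91 DEG of WT VSMC were 44 to 91 with a set left out. The causes of these shifts were not tested. Without the block, differences in level between animals count as error by the design of that fit. Their part in the fall to 0 was not tested. Of the 83 DEG, 83 were called with the size factors of DESeq2 and 74 after removal of the length trend. Depth was 23500249 counts or more in each of the 6 libraries.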
